A study of Homo sapiens with 16 samples.

Results

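The TNF receptors and the proteins that assemble on them were followed in human kidney organoids as 10 genes, which are listed by name by a rule that uses no measured value, although earlier results of these data were known when it was written. They are the receptors TNFRSF1A and TNFRSF1B and the complex genes TRADD, TRAF2, RIPK1, BIRC2, CASP8, FADD, MAP3K7 and TAB2. All 10 were present in each bulk RNA table, which hold 20121, 27650 and 21093 genes, and in the single-cell matrices, which hold 36601 genes.

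TNFα binds TNFRSF1A, which most cell types carry, and TNFRSF1B, which is best known from leukocytes and endothelial cells. The death domain of TNFRSF1A gathers the adaptor TRADD and the kinase RIPK1, TRADD brings in the adaptor TRAF2, and TRAF2 carries the ubiquitin ligase cIAP1, the product of BIRC2. Ubiquitin chains built there are read by TAB2, which holds the kinase TAK1, the product of MAP3K7, and TAK1 turns on the NF-κB and MAP kinase pathways. RIPK1 or TRADD can also leave the membrane and join FADD and the protease CASP8 in a second complex that starts cell death. In the kidney, TNFα is a stressor of glomerular and tubular epithelium.

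The organoids were grown from UM77-2, 1 line of human embryonic stem cells, and every group shares that line. Bulk RNA came from isolated spheroids without added cytokine at day (D) 21, D25 and D29, as set 1 with 1 library per day and set 2 with 2 libraries per day. A further set compared vehicle control (VC) with 5 ng/ml TNFα at 24 h and at 48 h, 1 library each, all collected at D25. Single cells came from whole wells at D24, 1 VC library and 1 library with 5 ng/ml TNFα for 24 h. Nothing in the labels says that set 2 libraries of 1 day came from separate differentiations, so their p-values measure the spread between these libraries, which may be technical.

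Bulk libraries held 19073609 to 59246286 reads. The VC single-cell library had 11906 cells with over 500 genes detected and a median of 6358.5 UMIs per cell, and the TNFα library had 23160 such cells with a median of 2599 UMIs. The matrices shared 82 cell barcodes. TNFRSF4, a receptor of the same family, had 224 UMIs in all VC cells and 9090 in all TNFα cells. All 12 podocyte markers were in every bulk table, and their sum lay between 3435 and 13123 CPM per library. Presence in a table alone does not show identity, since all 8 neuronal markers were also in the tables of set 2 and of the TNFα set. PTPRC, which defines leukocytes, had 1 UMI in all VC cells and 4 in all TNFα cells.

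On GRCh38, GENCODE 44 places TNFRSF1A (ENSG00000067182) on chromosome 12, 6328757 to 6342114, minus strand, and TNFRSF1B (ENSG00000028137) on chromosome 1, 12166991 to 12209228, plus strand. TRADD (ENSG00000102871) lies on chromosome 16, 67154185 to 67159909, TRAF2 (ENSG00000127191) on chromosome 9, 136881912 to 136926607, and RIPK1 (ENSG00000137275) on chromosome 6, 3063824 to 3115187. BIRC2 (ENSG00000110330) lies on chromosome 11, 102347211 to 102378670, CASP8 (ENSG00000064012) on chromosome 2, 201233443 to 201361836, and FADD (ENSG00000168040) on chromosome 11, 70203296 to 70207390. MAP3K7 (ENSG00000135341) lies on chromosome 6, 90513573 to 90587086, and TAB2 (ENSG00000055208) on chromosome 6, 149218641 to 149411613. The values count reads over a whole gene, so they do not separate isoforms. Of the exon bases of FADD, 59.2% are shared with a long noncoding RNA on the opposite strand, and the sources used here do not give whether counting used strand, so the bulk values of FADD are uncertain.

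Per length of exon, TNFRSF1A had the highest mean of the members in set 2 and TNFRSF1B the lowest. Length is the union of all annotated exons of a gene, from 1708 bases for FADD to 12173 for RIPK1. TNFRSF1A stood at 21.1 ± 0.56 CPM per kb of exon (SD over the 6 libraries), and TNFRSF1B at 0.42 ± 0.12 CPM per kb. BIRC2 at 17.3 ± 0.74, FADD at 16.4 ± 0.72 and TAB2 at 15.6 ± 0.90 CPM per kb followed TNFRSF1A, and neighbours among these 3 lay within the sum of their SDs. TRAF2 at 6.24 ± 0.43 and MAP3K7 at 6.19 ± 0.35 CPM per kb could not be told apart on this measure. Without division by length MAP3K7 stood at 53.1 to 63.4 CPM and TRAF2 at 20.5 to 24.5 CPM over the 6 libraries. The order thus depends on the length used, and the union of exons can exceed the length of the transcripts present. In set 1 the order at the top was another, with BIRC2 first, then TAB2 at 18.1 and TNFRSF1A at 17.6 CPM per kb as means over the 3 days, and TNFRSF1B was again the lowest. In set 2 TRADD stood at 3.43 ± 0.29, RIPK1 at 2.96 ± 0.25 and CASP8 at 0.54 ± 0.28 CPM per kb. TRADD and RIPK1 lay within the sum of their SDs, as did CASP8 and TNFRSF1B. Without division by length RIPK1 stood at 30.7 to 39.2 CPM and TRADD at 6.40 to 8.21 CPM. In both D21 libraries of set 2 CASP8 was the lower, at 0.198 and 0.215 against 0.330 and 0.307 CPM per kb for TNFRSF1B. TNFRSF1A rested on 1666 to 2779 reads per library of set 2, CASP8 on 31 to 182 and TNFRSF1B on 27 to 64.

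**Figure D1:**
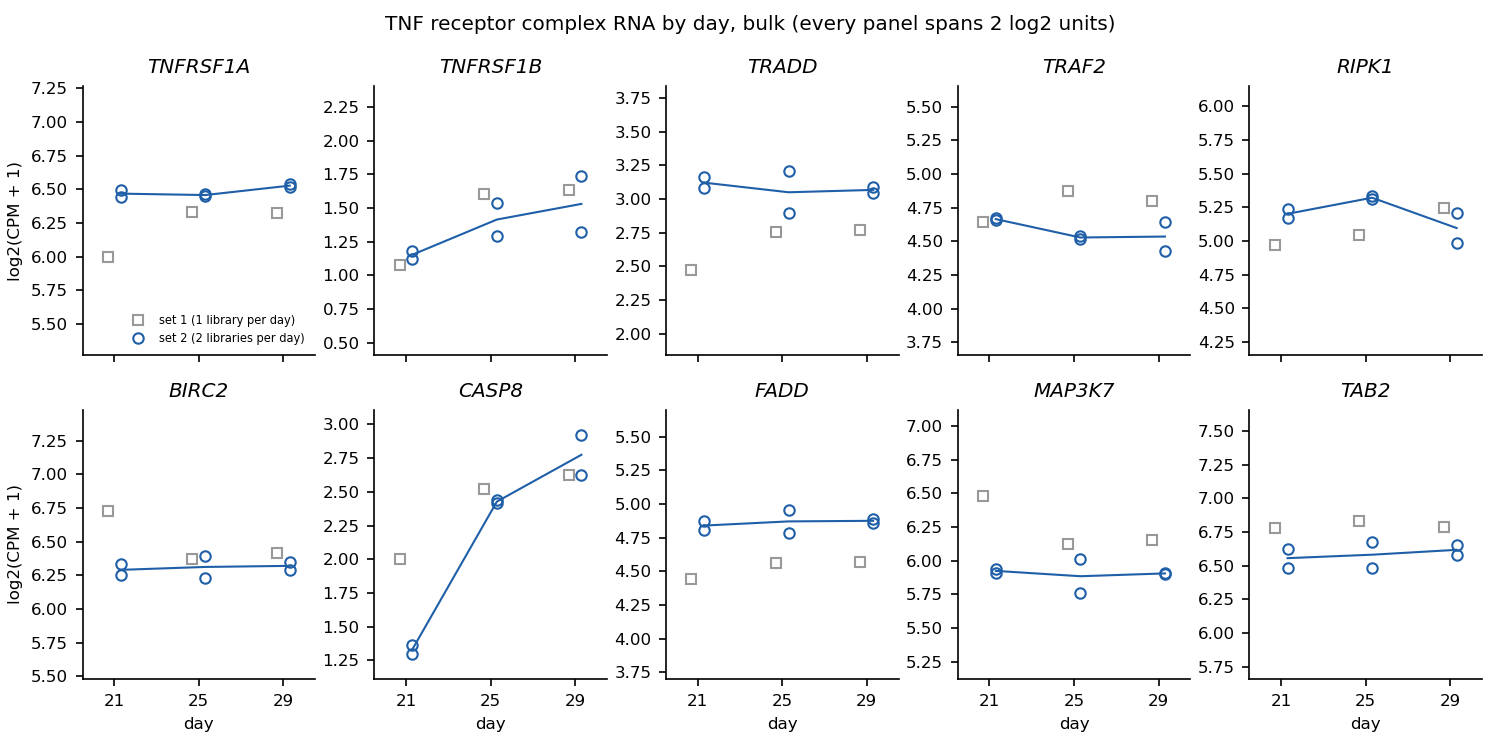
Level of each member as log2(CPM + 1) against day, 1 panel per gene, with 1 point per library of set 1 and set 2 and a line through the means of set 2. Every panel spans the same range of log2 units. The D25 and D29 points of set 2 lie above D21 for CASP8, by the largest distance. They also lie above D21 for TNFRSF1B and below it for TRAF2. Levels of set 1 and set 2 were normalized separately and are compared only within a set.

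The first comparison asked how the receptors and their complex behaved as organoids aged. In set 2, 1 of the 10 members changed from D21 to D29, and it was CASP8, which rose. In the same comparison limma called 18.4% of all 27650 genes at an adjusted p under 0.05, 10.0% higher and 8.33% lower, so the count of members lay no higher than the background. The median change of the members was 0.03 on the log2(CPM + 1) scale, against -0.02 over all genes.

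CASP8, the protease that starts the extrinsic death programme, had log2(CPM + 1) values of 1.29 and 1.37 at D21, 2.44 and 2.41 at D25, and 2.62 and 2.93 at D29 in set 2. These rest on 31 and 43 reads at D21, 84 and 96 at D25, and 156 and 182 at D29. Both D21 libraries lay below all later ones, and the D25 and D29 libraries did not overlap either. Groups that do not overlap were common over all genes, at 50.0% from D21 to D25, 47.6% from D25 to D29 and 59.9% from D21 to D29. The rise from D21 to D29 was 1.45 on the log2(CPM + 1) scale (SE 0.16, n = 2 per day, limma adjusted p = 0.000905), 2.72-fold in CPM + 1, and it passed in 13 of 13 alternative fits, with adjusted p from 3.22e-09 to 0.0121. Set 1, with no replicate, gave 2.00 at D21, 2.52 at D25 and 2.62 at D29 from 88, 126 and 131 reads, in the same order of days.

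Most of that rise lay before D25. From D21 to D25 CASP8 rose by 1.10 (SE 0.16, n = 2 per day, limma adjusted p = 0.0109), where 5.37% of all genes were called, 3.39% higher and 1.99% lower, and CASP8 was again 1 of 10 members. Leaving out any one of the D21 or D25 libraries ended this call, with adjusted p between 0.0765 and 0.0993. From D25 to D29 the difference was 0.35 (SE 0.16, limma adjusted p = 0.328). There limma called 0 of the 10 members against 2.08% of all genes (1.25% higher and 0.825% lower), edgeR and DESeq2 also called 0, and 1 member, RIPK1, had an unadjusted p under 0.05.

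RNA of cell type markers moved with the same days, and in bulk RNA fewer cells of a type and less RNA per cell cannot be told apart. Of 10 stromal markers, 9 rose from D21 to D29 in set 2, where 10.0% of all genes were called higher and 8.33% lower. The summed level of the 10 went from 4389 and 3928 CPM at D21 to 9126 and 9246 CPM at D25 and to 11605 and 14088 CPM at D29. Of 12 podocyte markers, 7 fell and 1 rose, and their sum went from 12578 and 13123 CPM at D21 to 9070 and 4380 CPM at D29. In the VC single cells described further on, CASP8 was highest in stromal-like cells, with an interval that overlapped that of proliferating-like cells. The part of these shifts in the rise of CASP8 was not tested.

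The 2 receptors gave no call across days. TNFRSF1A stood at 6.44 and 6.49 at D21, 6.47 and 6.45 at D25 and 6.54 and 6.52 at D29 on the log2(CPM + 1) scale in set 2. The difference from D21 to D29 was 0.06 (SE 0.06, limma adjusted p = 0.581), with a range of 2 SE from -0.06 to 0.18. In set 1 TNFRSF1A stood at 6.33 at both D25 and D29, and the D29 level was 0.33 above that at D21, with no replicate.

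TNFRSF1B stood at 1.18 and 1.12 at D21, 1.29 and 1.54 at D25 and 1.32 and 1.74 at D29, from 27 to 64 reads. Its D21 libraries lay below the D29 libraries, as was so for 59.9% of all genes in one direction or the other, and the difference of 0.38 did not pass (SE 0.18, limma adjusted p = 0.202). Of 8 endothelial markers, 5 rose from D21 to D29, where 10.0% of all genes were called higher and 8.33% lower. PECAM1 rose by 1.38, CDH5 by 1.11, ERG by 1.09, TEK by 0.90 and EMCN by 0.89, and CLDN5 and ESAM fell. The sum of the 8 markers went from 154 and 181 CPM at D21 to 79.5 and 71.6 CPM at D29. CLDN5, which podocyte-like cells hold in the single-cell data, made up 101 and 126 CPM of it at D21 and 28.1 and 18.0 CPM at D29. The other 7 summed to 52.5 and 54.6 CPM at D21 and 51.4 and 53.7 CPM at D29. In all VC single cells, ESAM had 1168 and EMCN 869 UMIs, against 59 for CDH5 and 30 for PECAM1. Which cells lay behind the sum of these 7 was not tested. Of the 4 leukocyte markers in the table AIF1, also a gene of podocyte-like cells here, fell, and the other 3 summed to at most 0.578 CPM in any library. The part of these markers in the values of TNFRSF1B was not tested.

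The adaptors and kinases gave no call from D21 to D29 either. TRADD differed by -0.05 (SE 0.15), TRAF2 by -0.13 (SE 0.10) and RIPK1 by -0.11 (SE 0.09) on the log2(CPM + 1) scale in set 2. BIRC2 differed by 0.03 (SE 0.08), FADD by 0.04 (SE 0.09), MAP3K7 by -0.02 (SE 0.09) and TAB2 by 0.06 (SE 0.09). The limma adjusted p of these 7 genes ran from 0.413 for TRAF2 to 0.922 for MAP3K7. Their ranges of 2 SE lay within -0.35 and 0.24 log2 units. Set 1 gave larger differences for some, -0.31 for BIRC2, -0.33 for MAP3K7, 0.30 for TRADD and 0.27 for RIPK1, with no replicate behind them.

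Around the receptor complex, 5 of 45 other pathway genes rose from D21 to D29 and 3 fell, close to the background of 18.4% called. BIRC3, the paralog of BIRC2 that NF-κB induces, rose by 0.96 (SE 0.20, limma adjusted p = 0.0143), from log2(CPM + 1) values of 1.21 and 0.92 at D21 to 1.82 and 2.23 at D29. TNFAIP3, which encodes the A20 brake on NF-κB, rose by 0.79, TRAF5 by 0.75, TIMP3, an inhibitor of the enzyme that sheds TNFα and its receptors, by 0.60, and TRAF1 by 0.38. MAP3K5, a stress kinase that binds TRAF2, fell by 1.11, CFLAR, the catalytically inactive relative and regulator of CASP8, fell by 0.50, and RNF31, a linear ubiquitin ligase, fell by 0.30. CASP8 and its regulator CFLAR thus moved in opposite directions between these days.

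Among 23 other receptors of the TNF receptor family, 6 rose and 2 fell from D21 to D29, where 10.0% of all genes were called higher and 8.33% lower. NGFR rose by 1.37, TNFRSF19 by 0.98, TNFRSF12A by 0.92, the death receptor FAS by 0.76 and TNFRSF9 by 0.66. The TRAIL receptors TNFRSF10C and TNFRSF10B fell by 0.59 and 0.27. Of 10 genes commonly induced by TNFα, 6 rose, with CCL2 by 1.64, ICAM1 by 1.56, TNFAIP2 by 1.29, VCAM1 by 1.10, RELB by 0.78 and NFKBIA by 0.34, each at a limma adjusted p of 0.0164 or lower. No TNFα was added to these organoids.

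The second comparison asked whether TNFα changed the RNA of its own receptors and receptor complex. Over both times, limma called 3 of the 10 members, of which TRAF2 and CASP8 rose and TAB2 fell, against 19.3% of all 21093 genes, 8.42% higher and 10.8% lower. The median change of the members was 0.07 log2 units, against -0.03 over all genes. The fit has 1 library per arm and time, so the 24 h and 48 h libraries stand in for replicates and 1 residual degree of freedom is left per gene. Its p-values weigh a change against what the times do not share, with an estimate of spread that borrows from all genes. They do not measure a spread between replicates. With treatment as the only term 1310 genes were called, against 4061.

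TRAF2 was the member that changed most. It had 1257 reads in VC and 2097 in TNFα at 24 h, and 1234 and 2160 reads at 48 h. On the log2(CPM + 1) scale these are 4.59 and 5.35 at 24 h, and 4.68 and 5.23 at 48 h, so both TNFα libraries lay above both VC libraries, and 46.2% of all genes had TNFα and VC values that did not overlap. The rise was 0.65 (SE 0.08, limma adjusted p = 1.38e-05), 1.57-fold in CPM + 1, and it passed in 7 of 7 alternative fits with an adjusted p of at most 0.0110. At single times the ratio of CPM was 1.72 (95% interval 1.61 to 1.85) at 24 h and 1.48 (1.38 to 1.58) at 48 h, where the intervals cover counting error only.

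The calls for CASP8 and TAB2 were less firm. CASP8 had 195 and 270 reads at 24 h and 196 and 308 at 48 h in VC and TNFα, or 2.20 and 2.62, then 2.30 and 2.63, as log2(CPM + 1). It rose by 0.37 (SE 0.12, limma adjusted p = 0.0350), but not with DESeq2 (adjusted p = 0.271) or with treatment as the only term (limma adjusted p = 0.224). TAB2 had 6426 and 5350 reads at 24 h and 5378 and 5632 at 48 h, or 6.90 and 6.68, then 6.76 and 6.59, as log2(CPM + 1). It fell by 0.20 (SE 0.06, limma adjusted p = 0.0357), and the call was lost with edgeR (adjusted p = 0.0803), with DESeq2 (adjusted p = 0.316), without the trend (limma adjusted p = 0.167) and with treatment alone (limma adjusted p = 0.282).

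**Figure D2:**
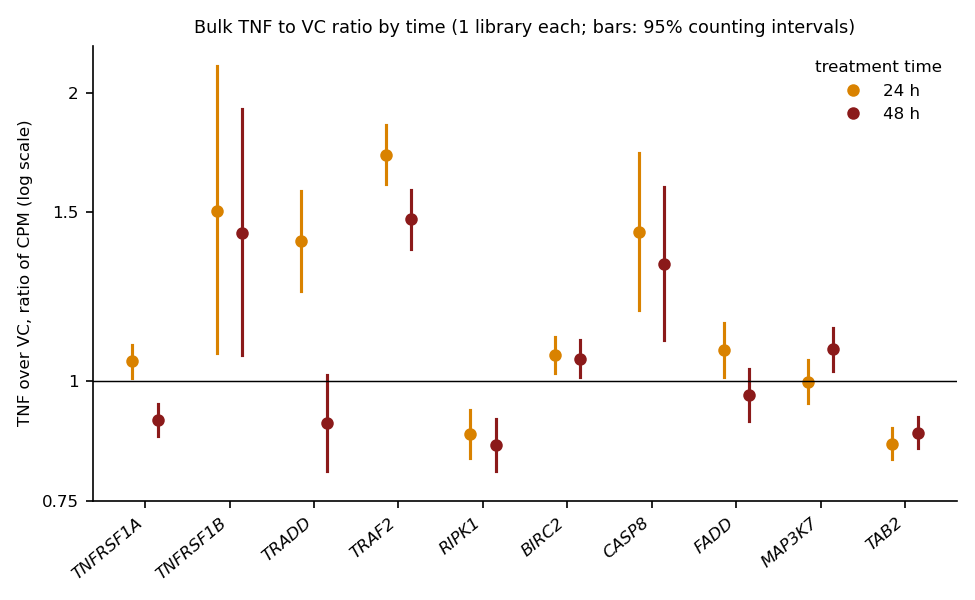
Ratio of CPM in the TNFα library over the VC library for each member on a log axis, at 24 h and 48 h, with 1 library each and 95% counting intervals as bars. TRAF2 lies at 1.72 and 1.48, CASP8 and TNFRSF1B lie above 1 and TAB2 and RIPK1 below 1 at both times, and TNFRSF1A and TRADD lie above 1 at 24 h and below 1 at 48 h.

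The receptors themselves gave no call. TNFRSF1A had 4756 and 4825 reads at 24 h and 5115 and 5523 at 48 h, or log2(CPM + 1) of 6.47 and 6.54, then 6.69 and 6.56, in VC and TNFα. The TNFα libraries lay between the VC libraries, and the difference was -0.03 (SE 0.07, limma adjusted p = 0.806) with a range of 2 SE from -0.17 to 0.10. TNFRSF1B had 59 and 86 reads at 24 h and 75 and 127 at 48 h, or 1.07 and 1.40, then 1.33 and 1.66, as log2(CPM + 1). Its difference of 0.33 (SE 0.12) fell just short, with a limma adjusted p of 0.0550. It passed with edgeR (adjusted p = 0.0442), without the trend (0.0330) and after median centring (0.0367), and over the 7 alternatives the adjusted p ran from 0.0330 to 0.552.

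With TNFα 4 of 8 endothelial markers fell, where 10.8% of all genes were called lower. PECAM1 fell by 0.57, CDH5 by 0.66, CLDN5 by 0.67 and ESAM by 0.25. The rest were not called, with differences of 0.34 for ERG, 0.07 for VWF, -0.13 for EMCN and -0.19 for TEK. Without CLDN5 the endothelial list summed to 79.1 and 73.1 CPM in VC and 65.2 and 60.9 CPM in TNFα. ESAM and EMCN led the rest of that list in all VC single cells, so this sum need not follow endothelial cells. Of the 2 leukocyte markers in the table AIF1 fell by 0.65, while CD14 stood between 0.240 and 0.304 CPM in all 4 libraries. CLDN5 and AIF1 lay mostly in podocyte-like cells in the single-cell data, so they do not gauge endothelial cells or leukocytes here, and the part of such cells in the values of TNFRSF1B was not tested.

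The remaining members did not pass. RIPK1 had 2593 and 2210 reads at 24 h and 1967 and 2001 at 48 h in VC and TNFα, with a difference of -0.20 (SE 0.07, limma adjusted p = 0.0692). TRADD had 476 and 645 reads at 24 h but 566 and 607 at 48 h, ratios of CPM of 1.40 (1.24 to 1.58) and 0.904 (0.805 to 1.02), and its common difference was 0.15 (SE 0.12, limma adjusted p = 0.463). BIRC2 differed by 0.08 (SE 0.07), FADD by 0.03 (SE 0.08) and MAP3K7 by 0.05 (SE 0.07). Podocyte markers moved with the treatment, since all 12 were called lower, beside 10.8% of all genes. Their sums were 8083 and 7515 CPM in VC and 4921 and 3704 CPM in TNFα. TRADD was highest in podocyte-like cells in the single-cell data, and the part of the podocyte markers in the bulk values was not tested.

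Of 45 other pathway genes 17 rose, where 8.42% of all genes were called higher. The median over the list was 0.10, against 0.07 over the members and -0.03 over all genes. The changes that stood out lay in single genes. BIRC3 rose by 3.54 (SE 0.14, limma adjusted p = 3.30e-12), from 52 and 74 reads in VC to 1434 and 1333 in TNFα, while its paralog BIRC2 stood at 4115 and 3646 reads in VC and 4240 and 4565 in TNFα. TNFAIP3 rose by 3.29, from 797 and 526 reads to 7995 and 6656. The ligand LTB rose by 2.55, TNF itself by 2.26, from 27 and 16 reads to 219 and 468, and RHBDF2, a partner of the TNFα-shedding enzyme, by 1.89.

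Of 23 other receptors of the family 16 rose, with a list median of 0.48, where 8.42% of all genes were called higher. TNFRSF4 (OX40) rose by 3.90, from 88 and 94 reads in VC to 2654 and 1887 in TNFα, TNFRSF9 (4-1BB) by 3.29, TNFRSF18 (GITR) by 2.94, TNFRSF14 by 1.74 and CD40 by 1.71. Of 9 TNFα-induced genes analysed here 8 rose. ICAM1 rose by 4.25, VCAM1 by 4.14, CCL2 by 4.07, CXCL10 by 3.20, RELB by 2.87, NFKBIA by 2.47, TNFAIP2 by 2.41 and NFKB2 by 2.26. SOD2 differed by -0.05 (limma adjusted p = 0.653), but the identifier under which it is listed is not in GENCODE 44, so which reads it received is uncertain.

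**Figure D3:**
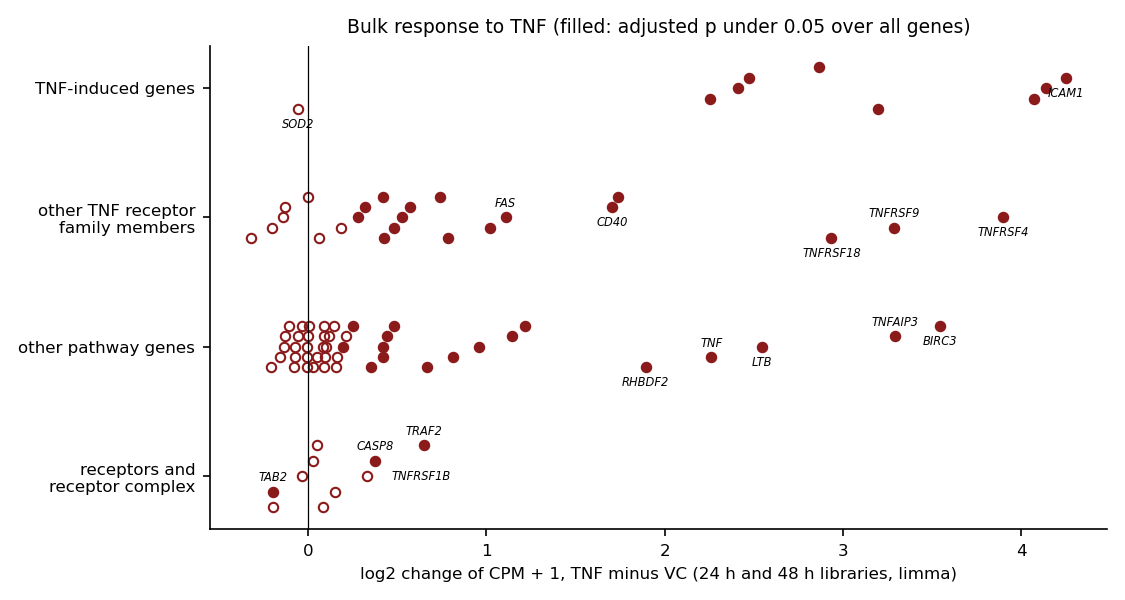
Change in log2(CPM + 1) from VC to TNFα in bulk for each gene of 4 lists, with filled points for genes called by limma at an adjusted p under 0.05 over all genes and open points for the others; height within a list only separates the points. The 10 receptor and complex genes lie between -0.20 and 0.65, while BIRC3 lies at 3.54, TNFRSF4 at 3.90 and ICAM1 at 4.25.

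BIRC2 and BIRC3 are neighbours on chromosome 11 in the same orientation, with 7807 bases between the end of BIRC3 at 102339403 and the start of BIRC2 at 102347211. The 250 bases before the start of each gene in RefSeq (GRCh38.p14, plus strand) are shown for this pair and for TRAF2, because they are the paralogs that differed most and the member that rose most. They cover chr11:102317234-102317483 for BIRC3, chr11:102346964-102347213 for BIRC2 and chr9:136886266-136886515 for TRAF2, the last of which lies inside the longer gene span of GENCODE 44. Capitals mark matches to the NF-κB consensus on either strand.
BIRC3: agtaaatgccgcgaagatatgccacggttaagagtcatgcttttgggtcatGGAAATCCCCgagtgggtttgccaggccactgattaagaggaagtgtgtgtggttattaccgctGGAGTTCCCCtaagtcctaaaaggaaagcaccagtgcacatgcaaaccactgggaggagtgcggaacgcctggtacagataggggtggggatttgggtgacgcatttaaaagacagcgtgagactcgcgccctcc
BIRC2: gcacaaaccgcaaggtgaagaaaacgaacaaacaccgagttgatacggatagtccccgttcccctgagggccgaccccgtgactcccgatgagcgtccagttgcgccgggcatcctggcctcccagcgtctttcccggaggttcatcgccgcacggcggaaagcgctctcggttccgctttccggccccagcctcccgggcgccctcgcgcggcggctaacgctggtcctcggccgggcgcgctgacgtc
TRAF2: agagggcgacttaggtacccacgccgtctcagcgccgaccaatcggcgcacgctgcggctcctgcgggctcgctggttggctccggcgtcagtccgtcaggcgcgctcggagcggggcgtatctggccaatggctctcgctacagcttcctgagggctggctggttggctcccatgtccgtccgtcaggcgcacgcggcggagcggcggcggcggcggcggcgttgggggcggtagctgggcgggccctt
BIRC3 held 2 matches, which start 199 and 135 bases before the gene start, and BIRC2 and TRAF2 held 0. The consensus was found in 9.96% of 35116 RefSeq promoter windows of this length, and in 0 of the 9 members with such a window, which are all but TRADD. Only the first listed window of each member was searched, so any other starts were not covered. The window of TAB2, like that of TRAF2, lies inside the longer gene span. The GC box GGGCGG, on either strand, was in 42.6% of windows, with 2 matches in TRAF2 and 0 in BIRC2 and BIRC3. A match describes letters and not a bound site, and the absence of one says only that these letters are not in this window.

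The next question was which cells carried the members. The VC and TNFα cells were clustered together without the members and the other pathway, TNF receptor family and TNFα-induced genes. Marker genes were not held out, so their levels by class are not independent of the clustering. Of the 14 clusters, 10 could be named from markers as 7 classes. In VC these were 1422 podocyte-like cells, 1298 proximal tubule (PT)-like cells, 2592 stromal-like, 682 proliferating-like, 1755 neuronal-like, 1053 muscle-like cells and 830 cells like neural progenitors or glia. At a finer resolution the PT-like cluster split, and its larger piece was led by early nephron markers, so its values cover more than mature PT. Levels are the UMIs of a gene over all UMIs of a class in CPM, with 95% Poisson intervals for the counting error alone, since there is 1 library per condition and no test.

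TNFRSF1A was detected in every class of the VC library and was most abundant in the stromal-like and podocyte-like cells. It stood at 88.8 CPM (83.9 to 93.9) in stromal-like and 83.6 CPM (79.0 to 88.4) in podocyte-like cells, whose intervals overlap. Proliferating-like cells followed at 57.2 CPM (51.6 to 63.2), clear of the podocyte-like level. PT-like cells stood at 33.3 CPM (30.8 to 36.0), cells like neural progenitors or glia at 31.4 CPM (28.0 to 35.2) and muscle-like cells at 25.8 CPM (22.5 to 29.4), each overlapping its neighbour. Neuronal-like cells had the lowest level, 14.4 CPM (12.5 to 16.6), which makes a 6.15-fold range over the named classes. The 4 unnamed clusters lay between 38.0 and 47.6 CPM.

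TNFRSF1B was close to the limit of detection in these cells. The VC library held 51 UMIs of TNFRSF1B in all cells against 4784 of TNFRSF1A, and the TNFα library held 90 against 4828. In VC, 18 of the 51 UMIs lay in stromal-like cells, 8 each in proliferating-like and neuronal-like cells, 4 in podocyte-like and 1 in PT-like cells. An unnamed cluster led by GJA4, SOX17 and CDH5, with a median of 968 UMIs per cell in VC, held 2 UMIs. Its level of 2.80 CPM (0.339 to 10.1) overlaps the 1.28 CPM (0.759 to 2.02) of stromal-like cells. With the VC library clustered alone, 553 cells were named endothelial-like by PECAM1, CDH5 and ESAM. They also held 2 UMIs of TNFRSF1B, or 2.65 CPM (0.321 to 9.58). Of the 8 leukocyte markers PTPRC had 1, CD3E 1, CSF1R 0, LAPTM5 6, CD14 10, LYZ 14 and TYROBP 23 UMIs in all VC cells. AIF1 had 2924, and the 158.8 CPM of that list in podocyte-like cells came mostly from 2304 of these. The endothelial list was likewise led by CLDN5 in podocyte-like cells (8022 UMIs). There ESAM had 191 UMIs, EMCN 36 and ERG 3, while PECAM1, CDH5, VWF and TEK had 1 UMI each.

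**Figure D4:**
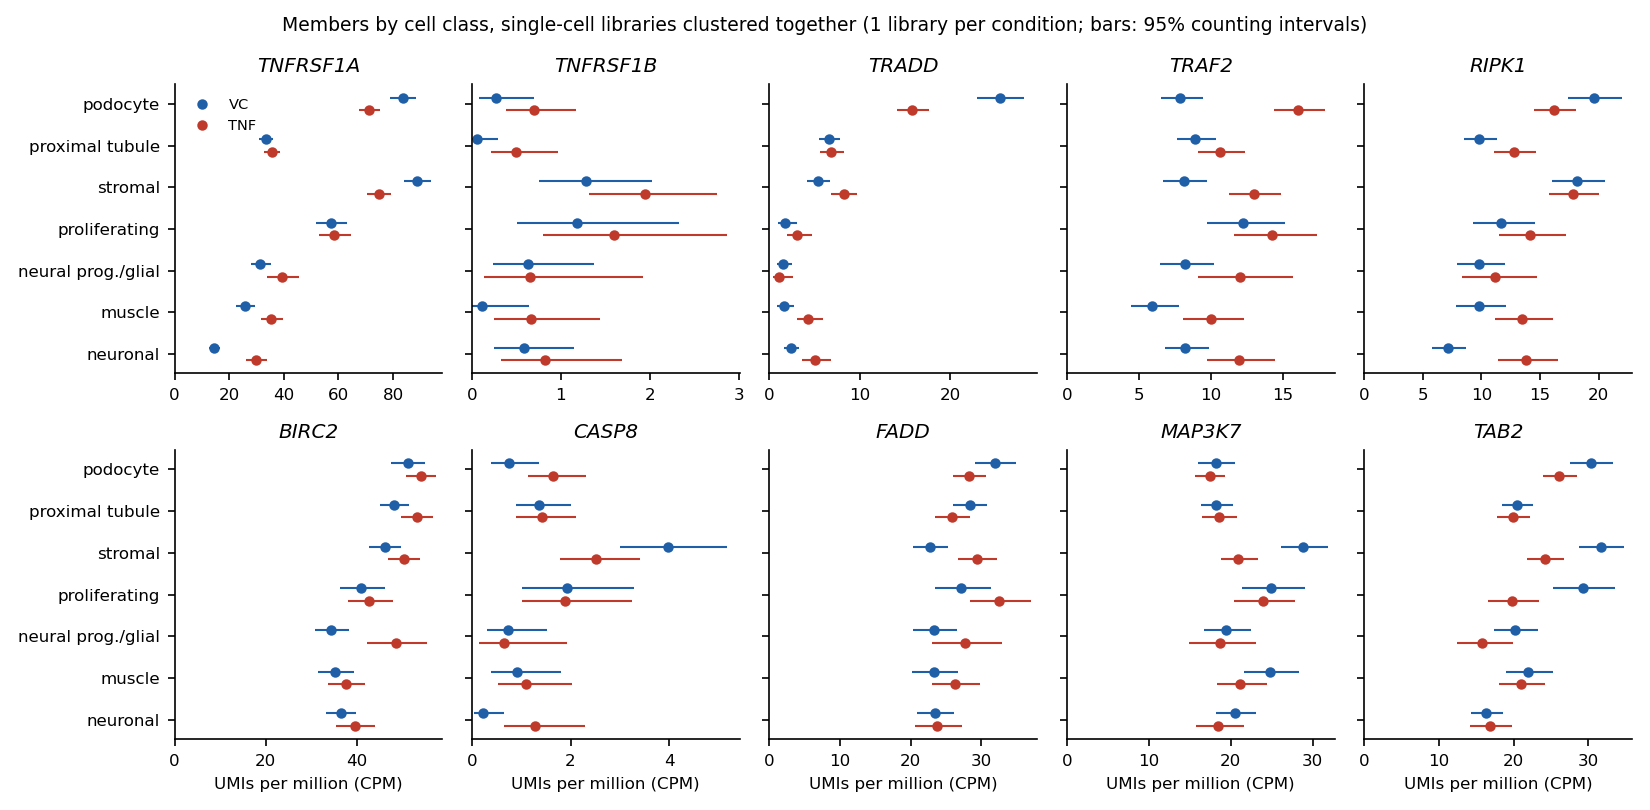
Level of members in CPM by cell class for the VC and TNFα single-cell libraries, clustered together, with 1 library per condition and 95% counting intervals as bars. TNFRSF1A is highest in stromal-like and podocyte-like cells of VC (88.8 and 83.6 CPM), and TRADD in podocyte-like cells (25.5 CPM).

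TRADD had the steepest profile among the members other than CASP8 and TNFRSF1B, which had few UMIs. It reached 25.5 CPM (23.0 to 28.3) in podocyte-like cells from 372 of its 689 UMIs. PT-like cells at 6.57 CPM (5.47 to 7.83) and stromal-like cells at 5.34 CPM (4.20 to 6.69) overlapped each other, and the other 4 named classes stood between 1.47 and 2.33 CPM. The range over the named classes was 17.3-fold. RIPK1 was also highest in podocyte-like cells at 19.6 CPM (17.4 to 22.0) and stromal-like cells at 18.1 CPM (16.0 to 20.5), overlapping each other and clear of the remaining named classes, which ran from 7.15 to 11.7 CPM.

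BIRC2, FADD, MAP3K7, TAB2 and TRAF2 varied less between classes than the other members, among which RIPK1 had a 2.75-fold range. The highest named class stood 1.49-fold over the lowest for BIRC2, 1.41-fold for FADD, 1.59-fold for MAP3K7, 1.94-fold for TAB2 and 2.07-fold for TRAF2. BIRC2 was highest in podocyte-like cells at 51.1 CPM (47.5 to 54.9) and lowest in cells like neural progenitors or glia at 34.4 CPM (30.8 to 38.3), with overlapping neighbours in that order. MAP3K7 was lowest in podocyte-like cells, at 18.2 CPM (16.1 to 20.5), against 28.9 CPM (26.1 to 31.8) in stromal-like cells. That lowest interval overlapped those of PT-like cells, neuronal-like cells and cells like neural progenitors or glia. TRAF2 ran from 5.94 CPM (4.43 to 7.78) in muscle-like to 12.3 CPM (9.76 to 15.2) in proliferating-like cells. CASP8 had 140 UMIs in VC, of which 56 lay in stromal-like cells at 3.98 CPM (3.01 to 5.17). Its level in podocyte-like cells was 0.755 CPM (0.377 to 1.35) from 11 UMIs and in neuronal-like cells 0.219 CPM (0.0451 to 0.639) from 3 UMIs.

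The last comparison set TNFα against VC within cell classes. When the TNFα library was clustered alone, 12687 of its cells fell in 1 cluster with no raised marker, and 61.4% of its cells stayed unnamed. Of the cells called podocyte-like in the joint clustering 26.5% had that name alone, against 98.4% in VC, and the shares in TNFα were 53.5% for PT-like, 50.2% for stromal-like and 28.5% for neuronal-like cells. NPHS1, the slit diaphragm gene that defines podocytes, stood at 390 CPM in podocyte-like cells of VC and 215 CPM in those of TNFα, and in stromal-like cells at 4.55 and 18.7 CPM. Each ratio is therefore given for the joint clustering and then for each library clustered alone. Ratios over all cells compare libraries with different mixes of classes. Podocyte-like cells made up 11.9% of VC and 21.2% of TNFα cells in the joint clustering, and neuronal-like cells 14.7% and 10.7%. With each library clustered alone, podocyte-like cells were 14.3% of VC and 5.64% of TNFα cells, and neuronal-like cells 14.3% and 3.05%. The podocyte share thus moved in opposite directions under the 2 clusterings. Summed podocyte markers over all cells stood at 1762 CPM in VC and 1671 CPM in TNFα. The part of the mix of classes in the ratios over all cells was not tested.

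TRAF2 was higher with TNFα over all cells and in most classes under both clusterings. Over all cells it had 854 UMIs in VC and 1168 in TNFα, a ratio of CPM of 1.51 (1.38 to 1.65). In podocyte-like cells the ratio was 2.04 (1.64 to 2.54) jointly and 2.29 (1.81 to 2.91) alone. In stromal-like cells it was 1.60 (1.27 to 2.03) and 1.51 (1.17 to 1.95), and in PT-like cells 1.19 (0.962 to 1.48) and 1.30 (1.04 to 1.63). The interval lay over 1 in 5 of the 7 named classes jointly and in 4 alone, and under 1 in 0. The rise of TRAF2 in bulk and its higher level in single cells were in the same direction, with bulk RNA from spheroids and single cells from whole wells.

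The size of the TNFRSF1A ratio depended on the clustering, and in podocyte-like cells its side of 1 did as well. Over all cells its ratio was 1.11 (1.07 to 1.16). In podocyte-like cells it was 0.852 (0.789 to 0.920) jointly but 1.07 (0.979 to 1.17) alone, and in stromal-like cells 0.841 (0.777 to 0.912) and 0.986 (0.905 to 1.07). In neuronal-like cells it was 2.07 (1.71 to 2.50) jointly and 1.12 (0.801 to 1.54) alone. The summed neuronal markers of the jointly named neuronal-like cells went from 7107 CPM in VC to 3830 CPM in TNFα and COL3A1, a stromal gene, from 116 to 413 CPM, and their part in the ratio was not tested. In PT-like cells the ratio of TNFRSF1A was 1.07 (0.958 to 1.20) and 1.03 (0.912 to 1.17). In muscle-like cells it was 1.37 (1.15 to 1.64) jointly and 1.27 (1.04 to 1.55) alone, with both intervals over 1.

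The ratio of TRADD stayed on the same side of 1 in every named class under both clusterings, but many intervals included 1. The interval of TRADD lay over 1 in 3 of the 7 named classes jointly and in 2 alone. It lay under 1 in 1 class jointly and in 0 alone. The size of the ratio of TRADD differed between the clusterings in podocyte-like cells. In podocyte-like cells its ratio was 0.620 (0.532 to 0.722) jointly and 0.917 (0.772 to 1.09) alone, while the summed podocyte markers of the joint class went from 10068 to 5053 CPM. In stromal-like cells it was 1.54 (1.15 to 2.07) and 1.71 (1.26 to 2.34), and in muscle-like cells 2.69 (1.43 to 5.37) and 2.98 (1.61 to 5.68). Summed podocyte markers went from 208 CPM in VC to 737 CPM in TNFα in the joint muscle-like class. In the joint stromal-like class they went from 569 to 686 CPM. The part of these markers in the ratios of TRADD was not tested. The muscle-like class was drawn mostly from cluster 7 in VC (88.5%) and from cluster 10 in TNFα (59.9%), and the neuronal-like class mostly from cluster 6 in VC (53.3%) and cluster 3 in TNFα (58.2%).

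**Figure D5:**
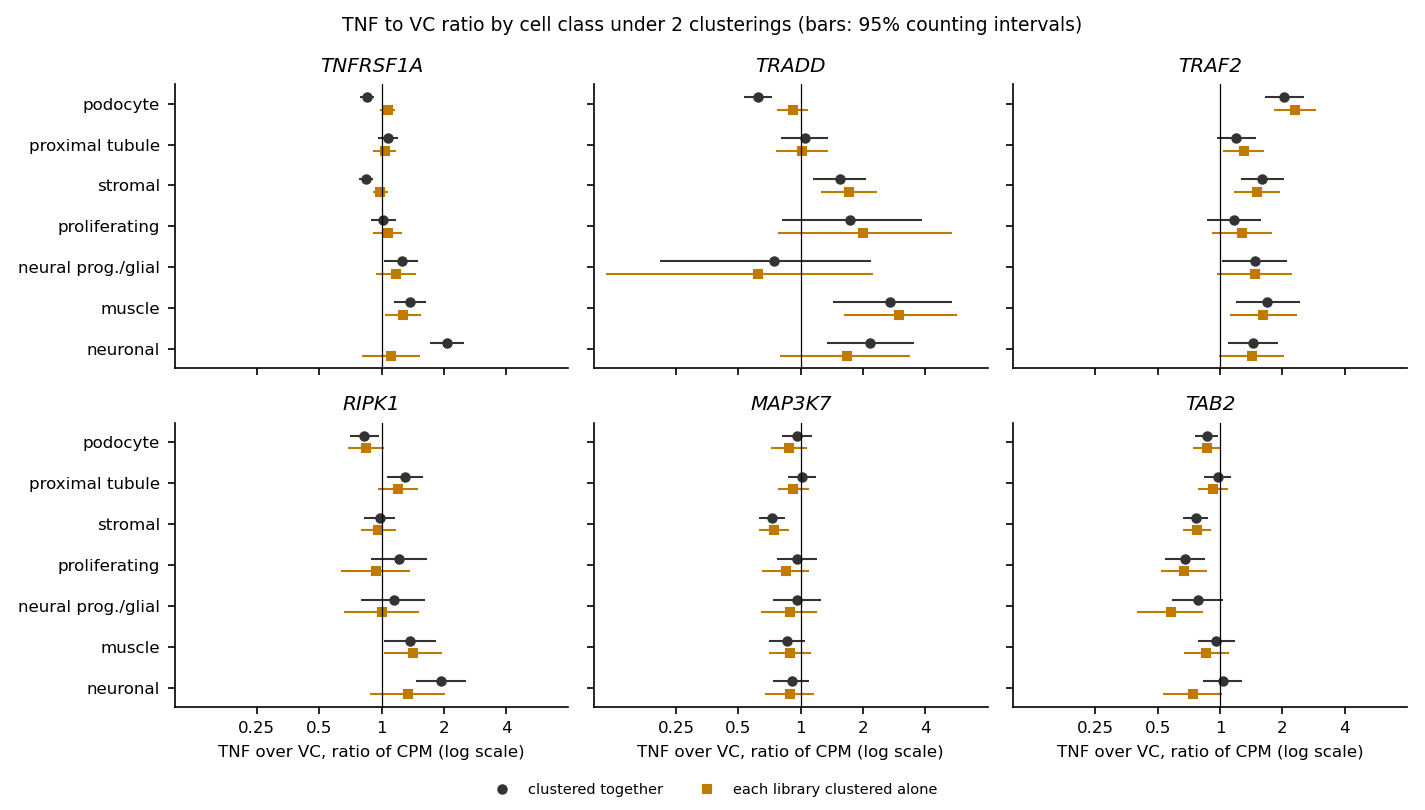
Ratio of CPM in TNFα over VC cells on a log axis by cell class for 6 members, with circles for the joint clustering and squares for each library clustered alone, and 95% counting intervals as bars. TRAF2 lies above 1 in every class shown, MAP3K7 and TAB2 lie below 1 in stromal-like cells under both clusterings, and TNFRSF1A in neuronal-like cells moves from 2.07 to 1.12 between them.

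TAB2 and MAP3K7, the partners in the TAK1 complex, were lower with TNFα in stromal-like cells. TAB2 had a ratio of 0.765 (0.666 to 0.878) there jointly and 0.773 (0.663 to 0.901) alone, and in proliferating-like cells of 0.677 (0.540 to 0.847) and 0.672 (0.516 to 0.868). In podocyte-like cells TAB2 had 0.861 (0.757 to 0.979) and 0.869 (0.744 to 1.01). In cells like neural progenitors or glia it had 0.782 (0.588 to 1.03) and 0.579 (0.395 to 0.827). MAP3K7 had 0.725 (0.626 to 0.840) in stromal-like cells jointly and 0.743 (0.63 to 0.874) alone. With each library clustered alone, both genes had ratios under 1 in every named class. The interval lay under 1 in 3 of the 7 named classes for TAB2 and in 1 for MAP3K7, under either clustering. Over all cells the ratios were 0.899 (0.847 to 0.954) for TAB2 and 0.883 (0.829 to 0.941) for MAP3K7. In bulk TAB2 was also lower, with ratios of 0.860 at 24 h and 0.883 at 48 h. MAP3K7 was not lower there, at 0.999 (0.948 to 1.05) and 1.08 (1.03 to 1.14). The summed stromal markers of the joint stromal-like class went from 5836 CPM in VC to 3864 CPM in TNFα, and their part in these ratios was not tested.

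RIPK1 had a ratio of 1.20 (1.11 to 1.29) over all cells, but 0.827 (0.703 to 0.973) in podocyte-like cells jointly and 0.845 (0.692 to 1.03) alone. In neuronal-like cells it was 1.93 (1.47 to 2.55) jointly and 1.34 (0.877 to 2.02) alone, and in muscle-like cells 1.37 (1.03 to 1.83) and 1.42 (1.03 to 1.95). The bulk libraries gave RIPK1 the other direction, with ratios of 0.881 (0.832 to 0.932) at 24 h and 0.858 (0.805 to 0.913) at 48 h. BIRC2 stood at 1.15 (1.10 to 1.20) over all cells, and at 1.41 (1.18 to 1.68) jointly and 1.38 (1.13 to 1.68) alone in the class like neural progenitors or glia. FADD stood at 1.08 (1.02 to 1.14) over all cells, and in stromal-like cells at 1.29 jointly and 1.30 alone, with both intervals over 1. The last 2 members rested on few UMIs. CASP8 had 140 and 154 UMIs over all cells, a ratio of 1.21 (0.960 to 1.54), with 11 and 33 UMIs in podocyte-like cells, a ratio of 2.18 (1.08 to 4.79) jointly and 2.48 (1.08 to 5.92) alone, and 56 and 40 UMIs in stromal-like cells, a ratio of 0.630 (0.409 to 0.962) jointly and 0.635 (0.382 to 1.03) alone. TNFRSF1B had a ratio of 1.95 (1.37 to 2.80) over all cells. For comparison BIRC3 had 63 and 688 UMIs over all cells, a ratio of 12.1 (9.30 to 15.9), TNFAIP3 one of 10.0 (9.01 to 11.1) and TNFRSF4 one of 44.8 (39.2 to 51.4).

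The genes whose level followed that of TNFRSF1A most closely were taken over the 22 combinations of class or unnamed cluster and library. By Pearson's r of log2(CPM + 10) among 10087 genes, these were EVA1B (r = 0.892), NFIC (0.889), P3H3 (0.887), BLVRB (0.885) and CDC42EP1 (0.881). The points share libraries and depth, and the values describe these libraries only. These genes reached at least 20 CPM in 1 or more combinations. Among the members, whatever their level, RIPK1 had r = 0.584, TRADD 0.545, TAB2 0.532, CASP8 0.476, BIRC2 0.415, TNFRSF1B 0.395, FADD 0.372, TRAF2 0.331 and MAP3K7 0.132 with TNFRSF1A, of which CASP8 and TNFRSF1B had few UMIs.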

How the data were processed

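Bulk RNA of spheroids and single cells of whole wells from UM77-2 kidney organoids were analysed from processed values. The authors aligned bulk reads with STAR 2.7.8a to GRCh38, counted them per gene with HTSeq (0.11 per the labels) and normalized with voom, and the sources used here do not give the filter on genes. The deposited bulk values are log2(CPM + 1), and whole reads came back for 100% of them, within 0.001 of a whole read. The single-cell UMI counts were deposited as matrices whose header names Cell Ranger 6.0.1, while the labels name 2.1.1. A further single-cell library, untreated at D25, was not analysed here.

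Set 2 and the TNFα set were fitted with limma 3.58.1 in R 4.3.3 (eBayes with a trend, two-sided) on the deposited log2 values, set 2 with 1 mean per day and the TNFα set with time and treatment. P-values were adjusted by Benjamini-Hochberg over all genes of a table and called under 0.05. Set 1, single TNFα times and single cells had no test. Tables were normalized separately and tested only within a table. Alternatives were edgeR 4.0.16 (TMM) and DESeq2 1.42.0 on the recovered reads, other pseudocounts, filters and centring, and each set 2 library left out.

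Cells over 500 genes were clustered in scanpy 1.11.5 on 30 components, aligned by a Harmony algorithm rewritten in numpy, and grouped by leidenalg 0.10.2 (resolution 0.25). Markers gave the clusters their names. Scrublet marked 0 doublets by its own threshold, so none were removed. Intervals are 95%, exact, and cover counting error only, as PCR copies in bulk are not independent molecules.

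Positions are GENCODE 44 on GRCh38, matched by identifier for 10 of 10 members, and promoters are RefSeq on GRCh38.p14. The members and lists were chosen with earlier results of these data known. Named genes are the members, up to 5 called rises and 5 falls per list, the TNFα-induced genes and the 5 genes most like TNFRSF1A. The fits, the clustering and the intervals were checked on simulated data.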

Additional observations from a re-analysis of the deposited data

Results flagged for a closer look

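For 4 members the TNFα and VC libraries of the bulk set lay in opposite order at the 2 times, each from 1 library per arm, and the difference between the times was not tested. TRADD had a ratio of CPM of 1.40 (1.24 to 1.58) at 24 h and 0.904 (0.805 to 1.02) at 48 h. TNFRSF1A had one of 1.05 (1.01 to 1.09) at 24 h and 0.910 (0.876 to 0.946) at 48 h. FADD, whose bulk values are uncertain, had 1.08 (1.01 to 1.15) at 24 h and 0.966 (0.907 to 1.03) at 48 h. MAP3K7 had 0.999 (0.948 to 1.05) at 24 h and 1.08 (1.03 to 1.14) at 48 h. Only for TNFRSF1A did the intervals, which cover counting error only, lie clear of 1 at both times.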

How the results depend on the processing

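Across 460 values of single members in bulk under alternative settings, 405 kept direction and call, 10 calls were lost, 3 were gained, and 42 values that were not called changed sign. The call for CASP8 from D21 to D29 held in all, and D25 to D29 gave 0 members in all. From D21 to D25 the number of members called ran from 0 to 1 when each set 2 library was left out, and was 0 without any D21 or D25 library, where fewer samples were fitted. With TNFα it went from 3 to 1 with DESeq2 and to 1 with treatment alone, and the cause was not tested. No replicate could be left out of the TNFα set. Centring each library on its median moved the median of all genes from D21 to D29 to -0.12 and gave 2408 genes higher and 4667 lower against 2778 and 2303, with 1 member still called.

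With the organoid number of set 2 as a replicate block, 1 member was called from D21 to D29, 1 from D21 to D25 and 0 from D25 to D29, as without it, among 6056, 2091 and 1118 genes against 5081, 1486 and 574. The deviations of same-numbered libraries correlated at 0.142, 0.0753 and 0.271, so the pairing by number was not established.

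In podocyte-like, PT-like and stromal-like cells, 171 of 180 VC levels and 166 of 177 ratios stayed within their main intervals. Of these 166 ratios 7 changed side of 1. Intervals were wide where UMIs were few, as for TNFRSF1B in PT-like cells (1.25 to 414). Other classes were not counted, such as neuronal-like cells, where the ratio of TNFRSF1A moved from 2.07 to 1.12. TNFRSF1A in VC PT-like cells went from 33.3 to 40.1 CPM at a resolution of 0.5 and to 37.2 CPM as a mean over cells, and in stromal-like cells from 88.8 to 96.5 CPM as a mean over cells. Its TNFα to VC ratio reversed in podocyte-like cells from 0.852 to 1.07 with each library clustered alone, and was 0.770 as a mean over cells. In stromal-like cells it went from 0.841 to 0.986 alone and 0.740 as a mean over cells, and in PT-like cells from 1.07 to 0.741 at a resolution of 0.5. At that resolution the PT-like ratios of RIPK1 and BIRC2 reversed to 0.933 and 0.990. The causes were not tested. Leaving out the cells with the highest Scrublet scores (9.18% of VC and 17.0% of TNFα cells) was chosen after seeing the data. It left no finite ratio of TNFRSF1B in podocyte-like and PT-like cells, nor did a resolution of 0.5 in PT-like cells. Depth limits CASP8 and TNFRSF1B most.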
